A study of Rattus norvegicus with 62 samples.

Results

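Bdnf and its receptor gene Ntrk2 were followed across the 4 groups of a rat blast study. They are 2 of the 32545 genes in the table of amygdala RNA-seq counts, chosen by gene identifier as a neurotrophin and its receptor in fear circuits (Bdnf, ENSRNOG00000047466; Ntrk2, ENSRNOG00000018839). Both had enough counts to be tested, as did 16535 genes in all. The animals were male Long Evans rats, bought at 10 to 12 weeks of age and 250 to 300 g, and no transgene or deletion is named for any group. Blast animals received a 74.5 kPa overpressure every 24 h over 72 h under anesthesia, and sham animals were handled in the same way, restrained and anesthetised, without the blast. Behavioral testing followed 1 to 1.5 months after exposure in the sub-acute cohort (17 sham and 17 blast animals) and 12 to 14 months after it in the chronic cohort (14 sham and 14 blast animals). Bilateral punches of the central and basolateral amygdala came from brains collected within weeks of the last behavioral test, and each library came from 1 animal, named here by group (AS and AB for sub-acute sham and blast, CS and CB for chronic sham and blast) and number. The chronic animals were also about a year older at collection, so that time since exposure, age and cohort cannot be told apart in any chronic vs. sub-acute comparison.

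Brain-derived neurotrophic factor is a secreted protein made mainly by excitatory neurons, and its transcription follows neuronal activity. It binds TrkB, the receptor tyrosine kinase encoded by Ntrk2, and receptor activation feeds the Ras and MAP kinase, PI3 kinase and phospholipase C pathways that act on neuronal survival, dendritic growth and synaptic strength. In the amygdala, signaling through this pair is known for its role in forming and extinguishing fear memories. Ntrk2 yields a full-length receptor with a kinase domain, found in neurons, and a truncated receptor without it, abundant in astrocytes. The counts here add all transcripts of a gene, so these receptor forms were not separated. In bulk tissue, fewer cells of a type and less RNA per cell cannot be told apart.

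Nor do the counts separate the start sites of Bdnf, a gene with several alternative first exons that are spliced to a shared coding exon. The RefSeq promoter table (rat assembly GRCr8, not the Rnor 6.0 build of the counts) held 6 start sites for Bdnf on the plus strand of chromosome 3, the last of them 20225 bases downstream of the first. The 250 bases before the most upstream start are shown because they open the locus, and the 250 bases before the fourth start because they alone among the 6 held TGACG, the core of the cAMP response element that the activity-dependent factor CREB binds. Capitals mark that match, which lies on the reverse strand, reads CGTCA in the strand shown and begins 35 bases before the start.

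Bdnf start 1, chr3:116619383-116619632: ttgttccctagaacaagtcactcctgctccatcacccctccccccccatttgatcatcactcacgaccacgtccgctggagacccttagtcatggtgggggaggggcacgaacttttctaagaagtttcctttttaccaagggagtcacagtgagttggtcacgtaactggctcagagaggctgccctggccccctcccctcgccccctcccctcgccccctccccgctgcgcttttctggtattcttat

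Bdnf start 4, chr3:116637608-116637857: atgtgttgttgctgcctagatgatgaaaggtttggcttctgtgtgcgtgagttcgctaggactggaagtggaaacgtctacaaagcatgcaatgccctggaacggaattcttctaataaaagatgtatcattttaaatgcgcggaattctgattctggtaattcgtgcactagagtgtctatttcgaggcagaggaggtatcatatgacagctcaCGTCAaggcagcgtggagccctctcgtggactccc

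The full palindrome TGACGTCA was found in 0 of the 6 windows on either strand, and in 1.59% of 33469 rat promoter windows of the same length. TGACG stood in 18.2% of those windows and the E-box CANNTG in 65.5%, against 5 of the 6 Bdnf windows for CANNTG. The windows of starts 5 and 6 overlap and share sequence. These matches describe the letters only.

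Some libraries differed from the rest across many genes. The 62 libraries held 18220986 to 78585782 counts, with 20.3% of the variance of the other genes on the first principal component, and 5 libraries lay more than 3 scaled median absolute deviations from the median on it. These were CS115, CS144, CB111, CB147 and CB149, so all were chronic. Only 2 libraries had under 25000000 counts, those of CS115 (20582780) and CB149 (18220986).

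Bdnf varied widely from animal to animal in every group. In sub-acute sham animals its level was lowest at 5.02, had a median of 23.6 and was highest at 65.7 CPM (the count relative to the library total, scaled by the trimmed mean of M values, TMM), from raw counts of 210 to 3207. In sub-acute blast animals the lowest, median and highest levels were 6.07, 22.9 and 44.8 CPM, from counts of 301 to 2414. These groups overlapped almost completely. In chronic sham animals the levels ran from 0.956 over a median of 21.3 to 43.7 CPM, from counts of 24 to 2098. In chronic blast animals they ran from 7.44 over 27.1 to 44.6 CPM, from counts of 249 to 1856. The 4 medians lay close together, and the chronic sham group stood out by its low end. CS144 had 0.956 CPM (43 counts) and CS115 had 1.05 CPM (24 counts), and these were the only 2 of 62 animals under 3 CPM. The next lowest animals were AS215, at 5.02 CPM, and CS141, at 5.45 CPM. Under 10 CPM there were 2 animals in each sub-acute group, 3 chronic sham animals and 1 chronic blast animal.

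**Figure D1:**
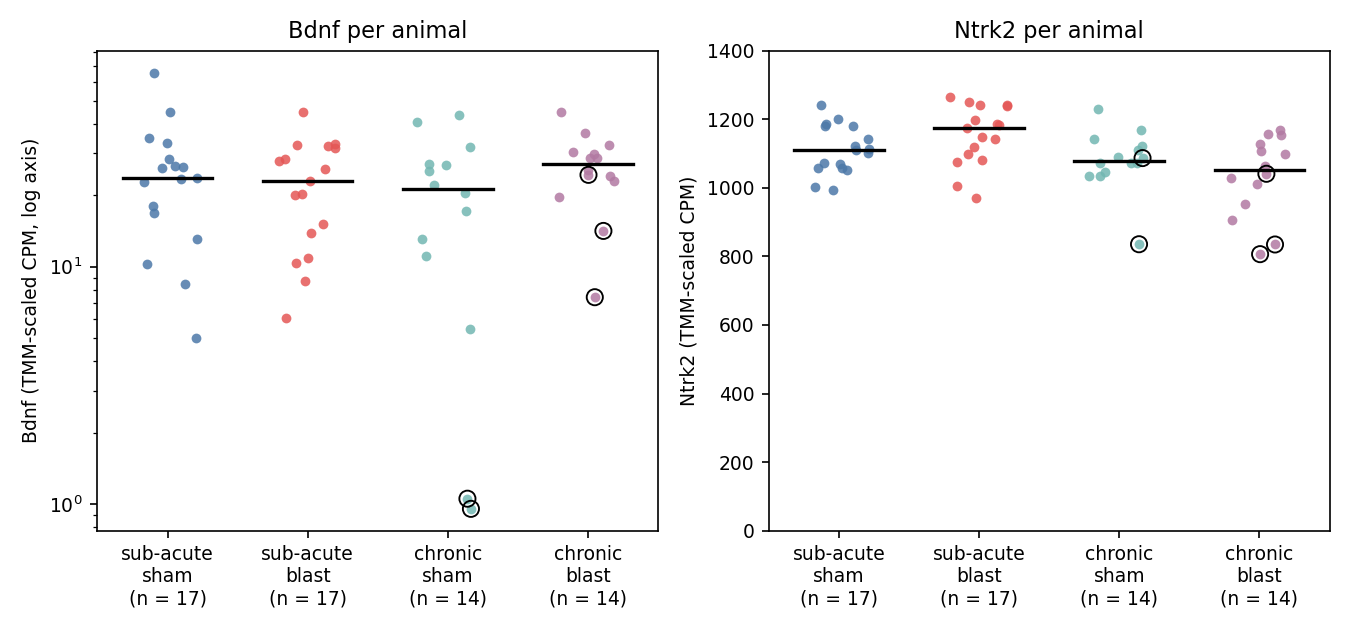
Bdnf (left, log axis) and Ntrk2 (right, linear axis from 0) in TMM-scaled CPM, with 1 point per animal, a bar at each group's median and rings around the 5 libraries that stood apart on the first principal component of the other genes. Bdnf spans 0.956 to 65.7 CPM with 2 chronic sham animals far below the rest, whereas Ntrk2 stays between 807 and 1264 CPM.

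Ntrk2 was abundant and held within a narrow range. Sub-acute sham animals had 995 CPM at the lowest, 1111 at the median and 1242 at the highest, from counts of 38756 to 86168. Sub-acute blast animals had 970, 1173 and 1264 CPM, from counts of 49428 to 74206. The blast median lay a little above the sham median within ranges that overlapped. Chronic sham animals had 836, 1080 and 1231 CPM, from counts of 19011 to 55398. Chronic blast animals had 807, 1052 and 1169 CPM, from counts of 15640 to 58322. The chronic blast group held the lowest animal, and its median was the lowest of the 4.

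The spread within groups set the genes apart. The highest animal exceeded the lowest by 13.1-fold for Bdnf in sub-acute sham animals, 7.38-fold in blast animals of that cohort, 45.7-fold in chronic sham animals and 6.0-fold in their blast counterparts, against 1.25-fold to 1.47-fold for Ntrk2. On the log2 CPM scale the SD of Bdnf around its group means was 1.06, larger than that of 98.1% of the genes tested, whose median SD was 0.30. Among the 500 genes nearest to Bdnf in mean level, 99.6% had a smaller SD. By group, the Bdnf SD was larger than that of 78.5% of genes in chronic blast animals and of 99.8% in chronic sham animals. Ntrk2 lay at the other end, with an SD of 0.12 around its group means, and only 5.14% of genes had a smaller one. These ranks describe the libraries and carry no test.

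Whether the groups differed in this spread was tested with the mean absolute deviation from the group median on the log2 CPM scale. For Bdnf it was 0.64 in both sub-acute groups, 1.16 in chronic sham and 0.41 in chronic blast animals. The chronic blast minus chronic sham difference of -0.74 had p = 0.0763 in a two-sided permutation test (adjusted p = 0.347 over 8 such tests). None of the 8 differences passed at an adjusted p of 0.05, and the smallest adjusted p was 0.347. Without the 5 libraries that stood apart, the chronic sham minus sub-acute sham difference for Bdnf moved from 0.52 to -0.02, and chronic blast minus chronic sham from -0.74 to -0.38 (permutation p = 0.0409, adjusted p = 0.164). Chronic minus sub-acute blast moved from -0.23 to -0.40 (permutation p = 0.0160, adjusted p = 0.128). All 5 libraries are chronic, and this subset was picked once the data had been seen. They include the lowest Bdnf animals of both chronic groups (CS144 and CS115, CB111 and CB149). Leaving them out trims the chronic groups only, so these p-values cannot decide whether the spread differed.

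Sub-acutely, neither gene passed the adjusted threshold between blast and sham animals. Mean Bdnf was 4.42 ± 0.90 (SD, n = 17) log2 CPM in sham and 4.31 ± 0.81 (SD, n = 17) in blast animals. The limma log2 fold change, blast minus sham, was -0.12 (SE 0.33, 95% interval -0.78 to 0.54, raw p = 0.721, adjusted p = 0.925). Of the 17 blast animals, 8 lay above the sham median of 23.6 CPM and 9 below it. Mean Ntrk2 was 10.12 ± 0.09 (SD, n = 17) in sham and 10.17 ± 0.11 (SD, n = 17) in blast animals. Its log2 fold change was 0.05 (SE 0.05, 95% interval -0.04 to 0.14, raw p = 0.239, adjusted p = 0.786 by limma). For Ntrk2, 12 of the 17 blast animals lay above the sham median of 1111 CPM and 5 below it. Among them, 4 lay above the highest sham animal and 1 below the lowest. A wide interval thus remained for Bdnf, from a fold of 0.583 to 1.46, and a tight one for Ntrk2, from 0.97 to 1.11. Over all genes, 0% passed an adjusted p of 0.05 in voom with limma, and 857 genes (5.18%) had a raw p under 0.05. The edgeR and DESeq2 fits also called 0 genes at the adjusted threshold, with 929 and 1062 at the raw threshold.

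At the chronic time-point Bdnf was higher in blast animals by the raw p alone. Its mean was 3.76 ± 1.75 (SD, n = 14) log2 CPM in sham and 4.62 ± 0.63 (SD, n = 14) in blast animals, and 11 of the 14 blast animals lay above the sham median of 21.3 CPM. The limma log2 fold change was 0.83 (SE 0.39, 95% interval 0.04 to 1.61), a fold of 1.77, with a raw p of 0.0399 and an adjusted p of 0.901. This raw p ranked 644 of 16535 genes, and 833 genes (5.04%) had a raw p under 0.05 in this comparison, 2.38% of all genes in the higher direction. No gene passed the adjusted threshold (0% in limma, and 0 genes in edgeR and DESeq2, which had 1013 and 1138 genes under the raw threshold). The difference therefore did not pass correction for the genes tested.

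The size of the chronic Bdnf difference rested on the low sham animals. Without CS144 it was 0.52 (raw p = 0.149 in limma), and without CS115 it was 0.63 (raw p = 0.0963 in limma). Over all 62 fits that left out 1 animal each, it ranged from 0.52 to 0.96, and the raw p stayed under 0.05 in 54. The 8 fits that lost it were those without CS112, CS115, CS141, CS144, CB126, CB128, CB135 or CB139. Without the 5 libraries that stood apart, which include CS115 and CS144, it was 0.47 (raw p = 0.144 in limma, 57 animals). Models that fit the counts directly gave 0.36 in edgeR (raw p = 0.278) and 0.36 in DESeq2 (raw p = 0.280), and a limma fit that weights libraries by their quality gave 0.52 (raw p = 0.107). The difference between group medians was 0.34 (two-sided permutation p = 0.124, adjusted p = 0.412 over 10 tests), and that between group means 0.85 (permutation p = 0.102, adjusted p = 0.261). Under 8 of 16 alternatives the raw p stayed under 0.05, among them those with the log2 library total in the model (0.86, raw p = 0.0234 in limma), with thinned counts (0.95, raw p = 0.0255 in limma), with the number series in the model (0.83, raw p = 0.0330 in limma) and with surrogate variables (0.34, raw p = 0.0396 in limma). The value stayed above 0 in all 16. Adjusted over all genes, the p-values ran from 0.806 to 1.0, whereas the 0.412 of the medians was adjusted over 10 permutation tests.

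**Figure D2:**
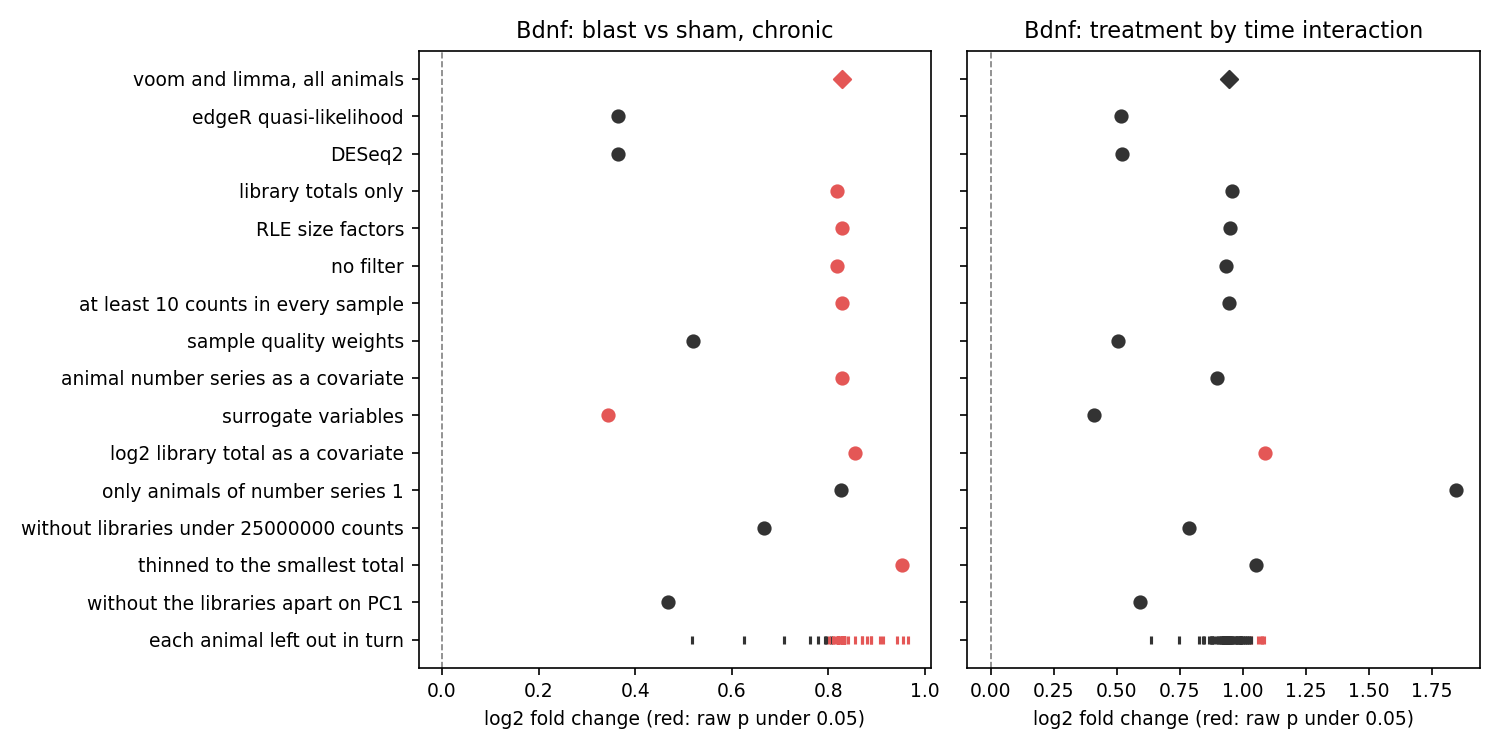
Log2 fold change of Bdnf for chronic blast minus sham (left) and for the treatment by time interaction (right) under each processing choice, with the voom and limma value as a diamond, the other choices as dots and each animal left out in turn as ticks; red marks a raw p under 0.05. The dots of the chronic difference run from 0.34 with surrogate variables to 0.95 with counts thinned to the smallest library, and the ticks from 0.52 to 0.96.

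Ntrk2 did not differ between chronic blast and sham animals beyond the spread. It averaged 10.07 ± 0.13 (SD, n = 14) log2 CPM in sham and 10.00 ± 0.17 (SD, n = 14) in blast animals, and 8 of the 14 blast animals lay below the sham median of 1080 CPM. The log2 fold change was -0.07 (SE 0.05, 95% interval -0.17 to 0.03, raw p = 0.171, adjusted p = 0.911 by limma). A change beyond a fold of 0.890 or 1.02 lay outside its interval.

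Between the time-points, sham animals showed no called change in the ligand or the receptor. For Bdnf the chronic minus sub-acute log2 fold change in sham animals was -0.62 (SE 0.38, 95% interval -1.37 to 0.13, raw p = 0.105, adjusted p = 0.376 by limma). This comparison shares the chronic sham animals with the one above, and the same low animals entered it. Without the 5 libraries that stood apart it was -0.06 (raw p = 0.837 in limma), and without CS144 alone it was -0.31 (raw p = 0.366 in limma). For Ntrk2 the value was -0.04 (SE 0.05, 95% interval -0.14 to 0.05, raw p = 0.360, adjusted p = 0.648 by limma), and 9 of the 14 chronic animals lay below the sub-acute median of 1111 CPM. In this comparison 362 genes (2.19%) passed an adjusted p of 0.05.

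In blast animals Ntrk2 fell between the time-points, and this was the only one of the 10 tests on these genes that passed the adjusted threshold. All 14 chronic blast animals lay below the sub-acute blast median of 1173 CPM, and 4 of them lay below the lowest sub-acute blast animal. The log2 fold change was -0.17 (SE 0.05, 95% interval -0.26 to -0.07, raw p = 0.000855, adjusted p = 0.0138 by limma), a fold of 0.891. This comparison called 2456 genes (14.9%) at an adjusted p of 0.05, with 7.01% of all genes lower in chronic animals. The change was smaller than a fold of 1.2, a size set here that 9.73% of all genes reached together with the adjusted p. A permutation test of the group means gave -0.17 as well (two-sided p = 0.00263, adjusted p = 0.0263 over 10 tests).

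Library depth and the number series of the animals moved with this comparison. Totals had a median of 54959799 counts in sub-acute blast and 37460121 in chronic blast libraries, and 12 of the 17 sub-acute blast animals but 0 of the 14 chronic ones carried numbers that do not begin with 1 (outside series 1). What this numbering stands for is not given in the sources used here. With the log2 library total in the model the Ntrk2 value was -0.08 (adjusted p = 0.334 by limma), and with 9 surrogate variables it was -0.01 (adjusted p = 0.904 by limma). With the number series in the model it was -0.18 (adjusted p = 0.103 by limma), and within series 1 alone, 5 sub-acute and 14 chronic blast animals, it was -0.18 (raw p = 0.0400, adjusted p = 0.329 by limma). These 4 fits called 630, 840, 325 and 14 genes in all, against 2456. With all libraries thinned to 18220986 counts it was -0.15 (adjusted p = 0.0283 by limma), and without the 5 libraries that stood apart it was -0.11 (adjusted p = 0.0386 by limma). With 1 animal left out at a time it ranged from -0.18 to -0.13, with the adjusted p under 0.05 in all 62 fits.

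Bdnf in blast animals had a chronic minus sub-acute log2 fold change of 0.33 (SE 0.35, 95% interval -0.38 to 1.03, raw p = 0.355, adjusted p = 0.568 by limma). Of the 14 chronic blast animals, 10 lay above the sub-acute blast median of 22.9 CPM, within the sub-acute range. The value was 0.78 (raw p = 0.0554 in limma) with the log2 library total in the model and 0.53 (raw p = 0.0689 in limma) without the 5 libraries that stood apart. It was 0.10 (raw p = 0.518 in limma) with surrogate variables and 0.22 (raw p = 0.482) in edgeR.

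**Figure D3:**
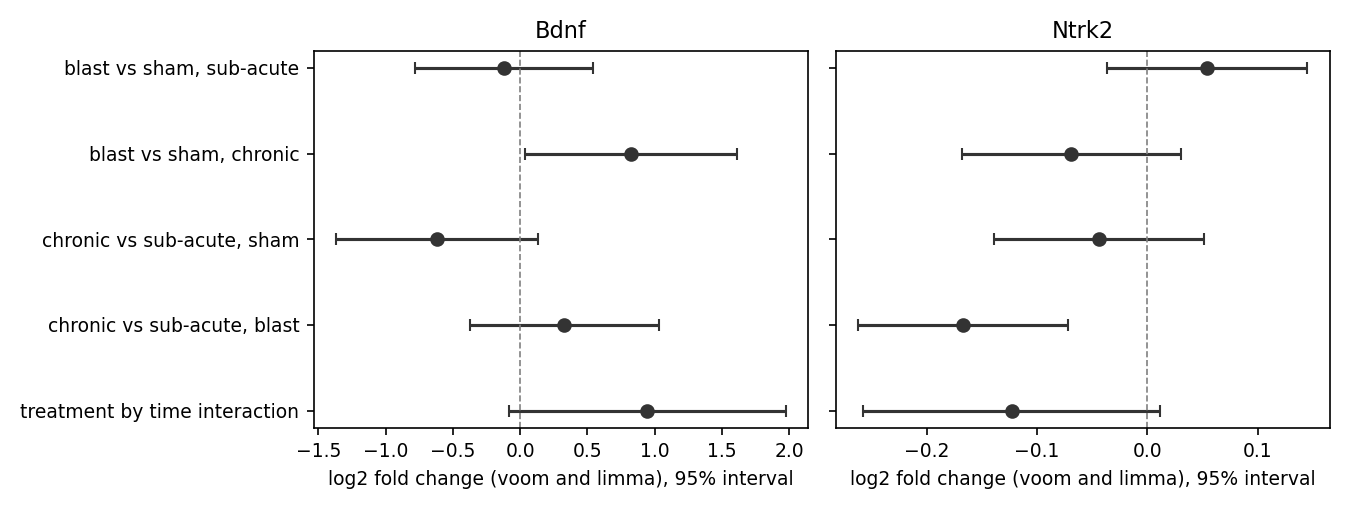
Log2 fold changes of Bdnf (left) and Ntrk2 (right) from voom and limma for the 5 comparisons, with 95% intervals and a dashed line at 0; the horizontal scales differ. The Bdnf intervals are many times wider than those of Ntrk2, and the interval furthest from 0 for its width is that of Ntrk2 in chronic vs. sub-acute blast animals, -0.26 to -0.07.

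The treatment by time interaction asks whether the change between time-points differed between blast and sham animals. For Bdnf it was 0.95 (SE 0.51, 95% interval -0.08 to 1.97, raw p = 0.0708, adjusted p = 0.838 by limma), and for Ntrk2 it was -0.12 (SE 0.07, 95% interval -0.26 to 0.01, raw p = 0.0727, adjusted p = 0.838 by limma). The ligand and the receptor thus had estimates of opposite sign, neither past a raw p of 0.05. Over all genes 0% passed the adjusted threshold (0 also in edgeR and DESeq2), 919 genes (5.56%) had a raw p under 0.05 in limma, and edgeR and DESeq2 gave 1143 and 1255. The Bdnf interaction was 0.64 without CS144 (raw p = 0.175 in limma), 1.08 without CS118 (raw p = 0.0389 in limma) and 0.59 without the 5 libraries that stood apart (raw p = 0.152 in limma). It was 0.52 in edgeR (raw p = 0.254) and 1.09 with the log2 library total in the model (raw p = 0.0325, adjusted p = 0.689 by limma). Within number series 1, with 2 sub-acute sham and 5 sub-acute blast animals, it was 1.85 (raw p = 0.0685, adjusted p = 0.999 by limma). With 1 animal left out at a time, the Ntrk2 interaction ran from -0.14 without CS115 to -0.10 without CB149 (raw p = 0.0242 and 0.131 in limma). Its raw p was under 0.05 in 7 of these 62 fits and in 2 of 15 other alternatives. None of these passed an adjusted p of 0.05. The decline of Ntrk2 in blast animals is therefore not shown to differ from that in sham animals.

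Ordered by mean level, Bdnf ran from chronic blast over sub-acute sham and sub-acute blast to chronic sham animals. Ntrk2 ran from sub-acute blast over sub-acute sham and chronic sham to chronic blast animals. Chronic blast animals were thus highest for Bdnf and lowest for Ntrk2 by mean. Tests between neighbours in each order gave permutation p-values from 0.132 to 0.733, and adjusted p-values of at least 0.432 over these 6 tests. The same means picked the neighbours, so these tests cannot decide whether groups further apart differed. Between the ends of each order, the permutation p was 0.102 for Bdnf and 0.00263 for Ntrk2. Adjusted over 10 tests, these were 0.261 and 0.0263.

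The log2 ratio of Ntrk2 to Bdnf counts, which does not depend on the scaling between libraries, was 5.70 ± 0.89 (SD, n = 17) in sub-acute sham animals and 5.85 ± 0.73 (SD, n = 17) in their blast counterparts, 6.30 ± 1.69 (SD, n = 14) in chronic sham and 5.39 ± 0.64 (SD, n = 14) in chronic blast animals. As gene length enters it, the ratio was compared only across groups. Chronic blast minus chronic sham gave -0.92 (two-sided permutation p = 0.0664, adjusted p = 0.117 over 5 tests), and the interaction gave -1.07 (permutation p = 0.0599, adjusted p = 0.117). The blast animals' chronic minus sub-acute difference was -0.47 (permutation p = 0.0700, adjusted p = 0.117). None passed the adjusted threshold. Without the 5 libraries that stood apart, these differences were -0.51, -0.66 and -0.64, with adjusted permutation p-values of 0.181, 0.181 and 0.0623. Within number series 1 the interaction of the ratio was -2.01 (permutation p = 0.0266, adjusted p = 0.0669).

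Across animals within a group, Bdnf and Ntrk2 moved together only in sub-acute blast animals by this test, with r = 0.70 (permutation p = 0.00183, adjusted p = 0.00732 over 4 groups) and rho = 0.62 (adjusted permutation p = 0.0364, n = 17). Without the 2 animals farthest from the median Bdnf level, r was 0.43 (permutation p = 0.111), so the relation rested on those animals, which were low for both genes. With library totals only, r was 0.63 (adjusted permutation p = 0.0267) but rho was 0.42 (adjusted permutation p = 0.362). With thinned counts both passed, at r = 0.67 (adjusted permutation p = 0.0129) and rho = 0.64 (adjusted permutation p = 0.0258). In sub-acute sham animals r was 0.16 and rho 0.15 (permutation p = 0.535 and 0.555, adjusted p = 0.713 and 0.740), and r was 0.21 without the 2 farthest animals. In chronic blast animals r was 0.10 and rho 0.07 (permutation p = 0.732 and 0.807, adjusted p = 0.732 and 0.807), and r was -0.19 without them. In chronic sham animals r was 0.39 and rho -0.22 (permutation p = 0.173 and 0.454, adjusted p = 0.346 and 0.740). The 2 animals with almost no Bdnf lay apart from the other 12, within which r was -0.52 (permutation p = 0.0831, adjusted p = 0.222), so the sign of r rested on those 2. The difference between these correlations was not tested.

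**Figure D4:**
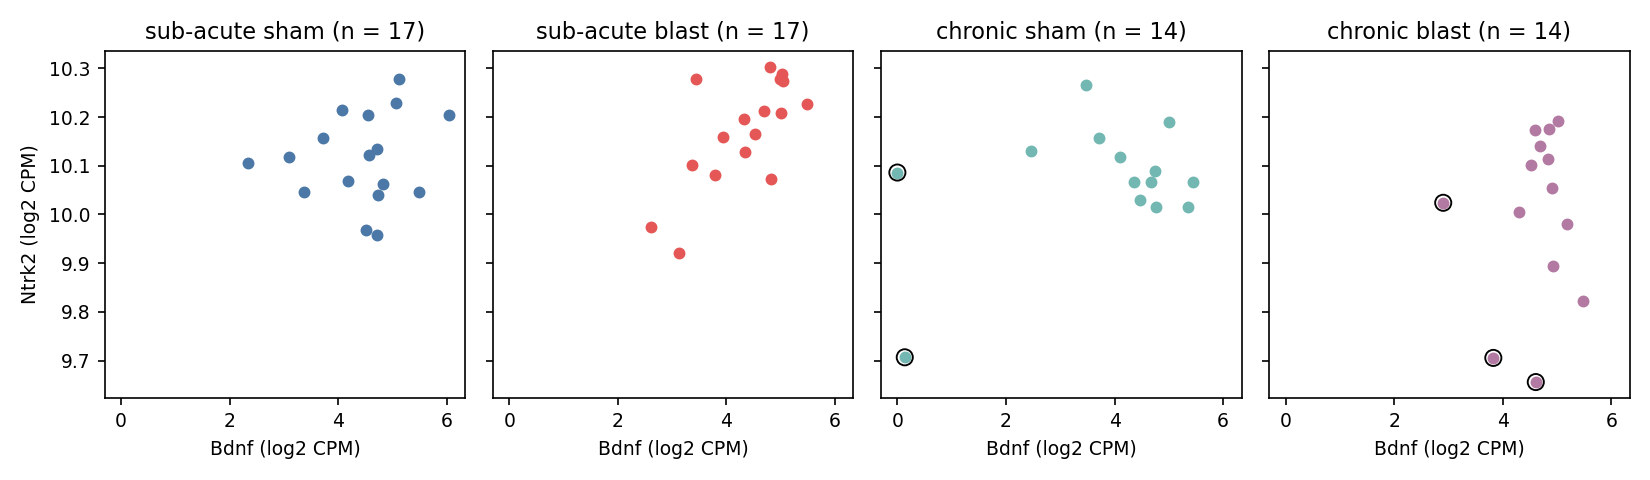
Ntrk2 against Bdnf in log2 CPM, with 1 panel per group, 1 point per animal and rings around the 5 libraries that stood apart on the first principal component. The sub-acute blast panel has r = 0.70, which becomes 0.43 without its 2 farthest animals, and in the chronic sham panel 2 points lie far to the left at about 0 log2 CPM.

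Both genes varied with the first principal component of the other genes. The share of all genes with as large an r was not computed, so these values do not set the 2 genes apart. Of the libraries that stood apart, CB111 had the lowest Bdnf of its group (7.44 CPM), and CS144 and CS115 the lowest of all. Ntrk2 was at its lowest in CB147 (807 CPM), CB149 (835 CPM) and CS115 (836 CPM). The same libraries were not all low for the other gene. CB147 had 24.4 CPM of Bdnf, against a median of 24.2 CPM over all animals. For Ntrk2, CS144 had 1087 CPM and CB111 had 1041 CPM, near their group medians of 1080 and 1052 CPM. As deviations from group means over all 62 animals, Bdnf had r = 0.65 with the first component. Its permutation p was 1e-05, the smallest these permutations can give, and its adjusted p was 3e-05 over 6 relations. Its rho was 0.56 (adjusted permutation p = 0.00012). Ntrk2 had r = 0.63 (permutation p = 1e-05, adjusted p = 3e-05) and rho = 0.49 (adjusted permutation p = 0.00018). Without the 2 animals farthest from the median deviation on this component, r was 0.60 for Bdnf and 0.46 for Ntrk2. Those 2 animals were picked by the component, not by the level of either gene. Without the 5 libraries that stood apart, r with this component was 0.40 for Bdnf and 0.46 for Ntrk2 (adjusted permutation p = 0.00446 and 0.00072, 57 animals).

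The second component held 12.5% of the variance. Over all 62 animals r with it was 0.02 for Bdnf and 0.27 for Ntrk2 (adjusted permutation p = 0.868 and 0.0396), with rho of 0.12 and 0.36 (adjusted permutation p = 0.343 and 0.00862), and over the 57 it was 0.37 and 0.52 (adjusted permutation p = 0.00634 and 0.0003). With the log2 library total r was 0.33 for Bdnf and 0.36 for Ntrk2 (adjusted permutation p = 0.0150 and 0.00846), with rho of 0.23 and 0.21 (adjusted permutation p = 0.104 and 0.116). Without the 2 animals farthest from the median deviation of the log2 library total, r was 0.14 and 0.09, so the r of that relation rested on those animals. The part of dissection, RNA quality or cell makeup in these components was not tested, since the gene identifiers in the table could not be paired with marker symbols here.

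**Figure D5:**
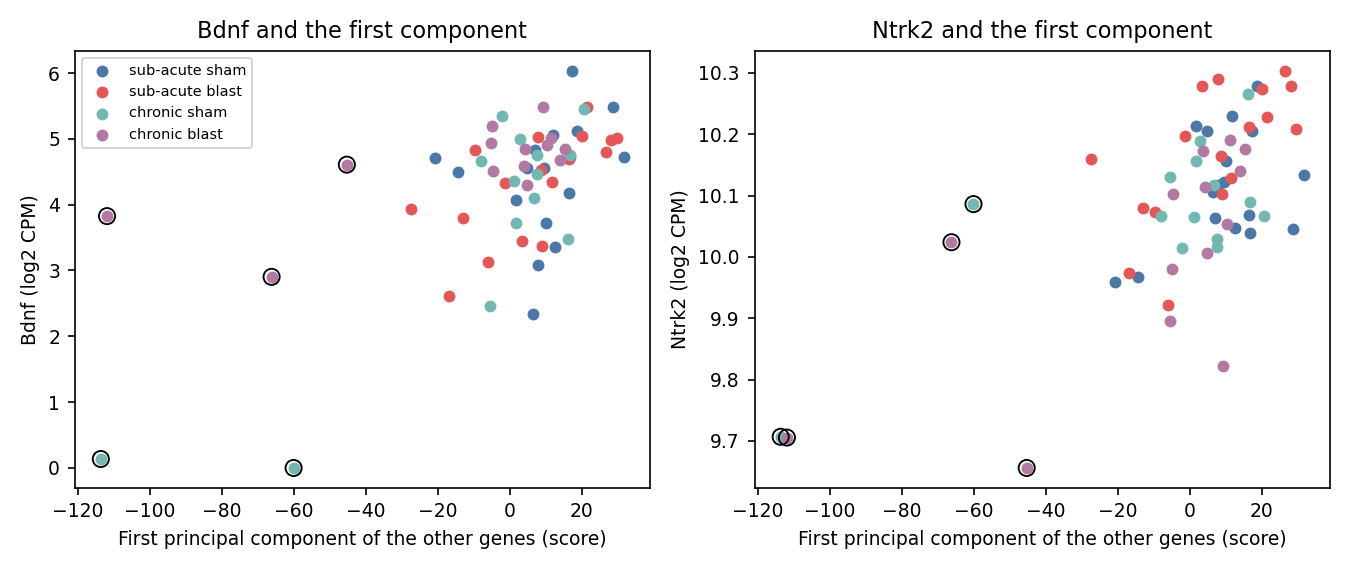
Bdnf (left) and Ntrk2 (right) in log2 CPM against each library's score on the first principal component of the other genes, colored by group, with rings around the 5 libraries that stood apart. The ringed libraries, all chronic, lie at scores below those of the other 57, and the lowest levels of both genes are among them.

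The genes whose pattern was most like that of each member were found by Pearson's r of log2 CPM over the 62 animals. Closest to Bdnf over all animals were ENSRNOG00000026055, with r = 0.95 over all animals and 0.95 for deviations from group means, and ENSRNOG00000002381, with 0.93 and 0.93. For deviations, ENSRNOG00000037687 ranked second, with 0.92 over all animals, 0.94 for deviations and 0.88 to 0.99 within the single groups. Within the single groups ENSRNOG00000026055 had an r with Bdnf of 0.87 to 0.99, and ENSRNOG00000002381 one of 0.90 to 0.98 in 3 groups but 0.53 in chronic blast animals. In all, 82 of 16534 genes reached an r of 0.8 with Bdnf. Closest to Ntrk2 were ENSRNOG00000008116, with 0.92 and 0.90, and ENSRNOG00000001113, with 0.85 and 0.82, and 8 genes reached an r of 0.8. Bdnf and Ntrk2 had r = 0.25 with each other over all animals, and 0.31 for deviations. These values are descriptions over libraries that share depth and the components above, and carry no test.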

How the data were processed

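Amygdala punches of 62 rats were sequenced by the authors as ribosomal RNA-depleted stranded libraries (KAPA RiboErase, HiSeq2500). Reads were aligned with STAR 2.4.2a to Ensembl Rnor 6.0 and assigned to genes with featureCounts 1.4.3-p1, and the authors deposited raw counts per gene. The strand setting and the treatment of multi-mapped reads are not given in the sources used here. Groups followed the sample titles. The table held 2 further columns that matched no sample and were not used.

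Genes were filtered by edgeR 4.0.16 (16535 of 32545 kept), scaled by TMM and fitted with voom and limma 3.58.1 (R 4.3.3) on the 4 groups, with Benjamini-Hochberg adjustment over all genes tested and a threshold of 0.05, and edgeR's quasi-likelihood test and DESeq2 1.42.0 were alternatives. The study's methods used voom and limma, so that fit was kept as the main one. Group differences in single values were tested by two-sided permutation (100000 resamples, or exact where a group was small) on log2 CPM with a prior count of 2. The smallest p that 100000 resamples can give is 1e-05. Other scalings, filters, covariates (surrogate variables from sva 3.50.0), subsets and each animal left out were tried. The members and lists were chosen with earlier results of these data known, and the 5 libraries that stood apart were left out in an added alternative, which was picked once the data had been seen.

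Genes named for a like pattern were those with the highest r with a member, at most 2 for each member over all animals and at most 2 for deviations from group means. The count table gives identifiers only: 0 of 32545 could be paired with a symbol in the tables used here, so the neurotrophin pathway list and the cell type markers were not analysed here, the labelled tissue was not checked against its markers, and the names Bdnf and Ntrk2 come from the given identifiers. Promoter windows came from RefSeq (6 for Bdnf and 0 for Ntrk2). Library totals ran from 18220986 to 78585782 counts.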

Additional observations from a re-analysis of the deposited data

How the results depend on the processing

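The 27 results were recomputed under 18 alternatives (243 values), and the 10 tests on single genes also with each of the 62 animals left out (620 values). Of the 243 values, 6 lost a call and 13 changed direction. By the adjusted p, all 620 values with an animal left out kept their direction and their side of the threshold. The chronic decline of Ntrk2 in blast animals lost its call with library totals only (-0.13, adjusted p = 0.0507), the number series as a covariate (-0.18), surrogate variables (-0.0095), the log2 library total as a covariate (-0.085) and number series 1 only (-0.18). It kept its call under 11 of 16 alternatives. Over all 16, the adjusted p ran from 0.00515 to 0.904 (by limma, edgeR, DESeq2 or permutation). The cause of the lost calls was not tested. The number of all genes called in chronic vs. sub-acute sham animals (362) was 1653 with quality weights, 638 with DESeq2, 1565 with surrogate variables, 163 with the log2 library total, 4 with the number series and 1 in series 1, and it was also over 1.5 times smaller with only these groups fitted and without AS208, AS221, CS115, CS125, CS127 or CS144. In blast animals (2456) it was 6562 with no filter, 3964 with quality weights, 3824 without the 5 libraries apart, 840, 630, 325 and 14 with surrogate variables, library total, number series and series 1. With an animal left out it was 1497 (without CB136) to 2829. Blast vs. sham and the interaction kept 0, except 1 gene in series 1 at the sub-acute time-point.

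The 13 changes of direction were in results that did not pass their threshold. Blast minus sham for Bdnf at the sub-acute time-point was 0.014 with quality weights. Chronic minus sub-acute Ntrk2 in sham animals was 0.047 with surrogate variables and 0.0051 with the log2 library total. The Bdnf spread differences were -0.0064 with thinned counts and -0.0017 without the 5 libraries apart (sub-acute blast minus sham), and -0.023 without those libraries (sham, chronic minus sub-acute). The Ntrk2 spread differences were -0.064 in series 1 (sub-acute blast minus sham), and for sham, chronic minus sub-acute, -0.020 without libraries under 25000000 counts, -0.083 in series 1 and -0.020 without the 5 libraries. The correlation of Bdnf with Ntrk2 was -0.090 in sub-acute sham animals with library totals only, and without the 2 farthest animals -0.52 in chronic sham and -0.19 in chronic blast animals. In sub-acute blast animals it kept its direction without the 2 farthest animals. It was 0.43 there and no longer past the threshold, which was the remaining lost call. The causes were not tested.

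No paired analysis was possible because no animal number occurs in more than 1 group. Bdnf counts were as low as 24 in CS115 and 43 in CS144, and its SD around group means was 1.06 log2 CPM. What either adds to the width of its intervals was not tested. The table does not separate transcripts, so nothing is said about start sites or receptor forms. With SEs of 0.33 to 0.51 for Bdnf, differences smaller than its intervals allow were not detectable here. All chronic animals carry numbers of series 1, so series and time-point are separated only by 7 sub-acute animals.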
